A study of Rattus norvegicus with 10 samples.

Results

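The transcripts described here are 6 adult globin genes and 2 other red cell genes in the left hippocampus of female TgF-344AD rats. They were taken by gene symbol from the deposited table of read counts and make up 8 of its 13670 symbols, each with 1 row. The beta globins are Hbb, Hbb-bs, Hbb-b1 and LOC100134871, the alpha globins are Hba1 and Hba-a2, and the other red cell genes are Alas2 and Slc4a1. These genes were chosen with their values in these libraries known, in particular the high level of Hbb in 1 BT-11 library, so every difference between the groups in them is a description and carries no test.

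The study compared 5 untreated rats on rodent chow with 5 rats whose chow held BT-11, a small molecule known as a binder of LANCL2, with 1 library per animal. All 10 animals carry the TgF-344AD transgenes, known as mutant human APP and presenilin genes driven by a prion promoter, and were perfused with cold saline at 11 months of age. BT-11 was given for 6 months from the age of 5 months. Female is the sex in the sample labels and the title, although the design text writes male once, and wild-type rats were not analysed here. Library totals ran from 13721673 to 19700443 counts. All 12 markers of hippocampal neurons, among them Slc17a7 and Camk2a, were in the table, with summed levels of 5226 to 6412 CPM in untreated and 5946 to 7433 CPM in BT-11 libraries. Of the 11 tested, 8 were higher and 3 lower with BT-11, with a median log2 fold change of 0.23, and none passed edgeR's test, while 4 had an unadjusted p under 0.05; their part in the globin level was not tested. The list of choroid plexus genes was far higher in untreated library 4 and BT-11 library 3 than in the other 8 libraries.

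Adult hemoglobin joins alpha and beta globin chains around heme, and red cell precursors make it in very large amounts before they lose their nucleus. Reticulocytes, the youngest circulating red cells, still hold globin messenger RNA. Neurons and some glia of the rodent brain are also known to express alpha and beta globin at low levels. Alas2 encodes the erythroid form of the enzyme that starts heme synthesis, and Slc4a1 encodes band 3, the anion exchanger of the red cell membrane.

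The stretch of 120 bases before the annotated start is shown for 4 globin genes, to set the like upstream sequences of the alpha pair beside the unlike ones of Hbb and a minor beta gene. Likeness of the counted transcripts themselves was not computed. The sequences are from RefSeq, build GRCr8, each on the minus strand and written 5′ to 3′. Capitals mark matches on either strand to the motif CACCC, to the motif CCAAT and to the motif ATAAA. The motif GATA was also searched, and its matches all lay farther than 120 bases from the start.
Hbb, chr1:167663722-167663841: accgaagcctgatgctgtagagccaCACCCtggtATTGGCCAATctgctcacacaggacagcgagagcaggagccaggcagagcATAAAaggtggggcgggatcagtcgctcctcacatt
Hbbl1, the RefSeq name of LOC100134871, chr1:167650236-167650355: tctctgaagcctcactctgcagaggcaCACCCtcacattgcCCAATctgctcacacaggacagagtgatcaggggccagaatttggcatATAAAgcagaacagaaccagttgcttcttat
Hba-a2, chr10:15829139-15829258: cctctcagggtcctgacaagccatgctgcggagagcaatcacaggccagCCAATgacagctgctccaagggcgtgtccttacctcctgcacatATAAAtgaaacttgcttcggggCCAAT
Hba-a1, chr10:15842581-15842700: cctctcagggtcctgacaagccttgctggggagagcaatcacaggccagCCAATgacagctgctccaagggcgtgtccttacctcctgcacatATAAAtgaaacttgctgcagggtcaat
By symbol or gene ID 7 of the 8 genes matched 1 RefSeq gene. Hba1 is an older symbol of both Hba-a2 and Hba-a1, so its row cannot be given to either, and both are shown.

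Over the 250 bases before the start, the alpha genes Hba-a2 and Hba-a1 were 96.4% identical. The beta genes other than Hbb were 93.3% to 95.7% identical to each other and 60.7% to 61.3% identical to Hbb. An ATAAA match, as in a TATA box, lay 36 bases before the start of Hbb and 27 bases before those of both alpha genes, and 39.3% of the 33469 RefSeq promoters hold this motif in the same window. CACCC was found in all 6 globin promoters searched, in the alpha genes only before the printed stretch, and in 49.2% of all promoters. CCAAT was likewise found in all 6 and in 34% of all promoters. GATA was found in all 6 and in 55.9% of all promoters. The longer CCACACCC, the classic beta globin CACCC box, was found in Hbb but not in the other 5 globin windows, and 2.84% of all promoters hold it. In the printed stretches no marked motifs overlapped, and CCACACCC holds the CACCC match of Hbb. These matches describe letters only, and they were not tied to the levels below.

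In the deposited table, which uses build rn6 and whose starts are given here as deposited, Hbb lies on chromosome 1 at 168971269 to 168972681, with LOC100134871, Hbb-bs and Hbb-b1 between 168945567 and 168965569. Hba1, at 15602794 to 15603650 on chromosome 10, lies wholly inside the span of Hba-a2, at 15577166 to 15603650. Of the 60 globin values, 6 rows in 10 libraries, 7 were whole numbers within 0.005. Summed within the beta or the alpha family, however, all 20 sums were whole within 0.005. Counts were thus divided in fractions within a family, and the family sums held whole reads. The counts of Hbb-bs were under 1e-6 in 3 libraries. The family sums are therefore the firmest values, and single rows are estimates.

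The summed globins were low in all 5 untreated libraries and spread widely among BT-11 libraries. Levels are in CPM, the counts of a gene per 1e6 counts of its library, scaled by edgeR's TMM factors. The 6 globins together measured 9.99, 13.2, 8.80, 5.79 and 10.5 CPM in untreated libraries 1 to 5. In BT-11 libraries 1 to 5 they measured 36.5, 47.6, 12.2, 249.6 and 6.34 CPM. BT-11 library 4 stood far above all others, at 5.24 times BT-11 library 2, the next highest. BT-11 libraries 1 and 2 lay above every untreated library as well, while BT-11 libraries 3 and 5 lay within the untreated range, so the groups overlapped.

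The untreated mean was 9.66 ± 2.7 CPM and the BT-11 mean 70.5 ± 101.6 CPM (SD, n = 5 each), a ratio of 7.30. Without BT-11 library 4 the BT-11 mean was 25.7 ± 19.6 CPM (SD, n = 4) and the ratio 2.66. The ratio of the medians was 3.65. In bulk tissue, more red cells and more globin RNA per cell cannot be told apart. Even in BT-11 library 4 the 4017 globin counts were 0.0248% of the library (exact 95% binomial interval 0.0241% to 0.0256%, counting error only), against 0.000575% to 0.00134% in untreated libraries.

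**Figure D1:**
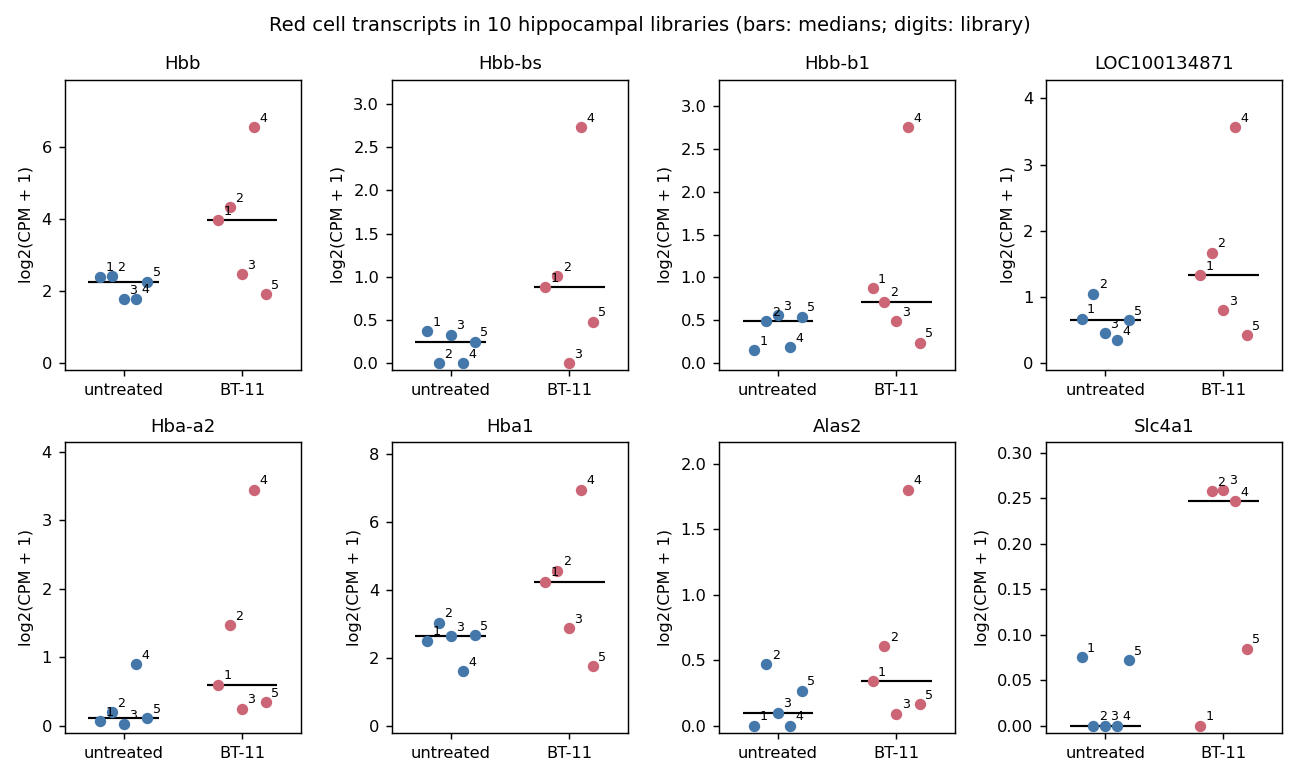
Level of each of the 8 genes as log2(CPM + 1) in the 5 untreated and 5 BT-11 libraries, 1 point per animal with the library number beside it and a bar at the group median. BT-11 library 4 is highest for all genes but Slc4a1, which had 3 counts in each of BT-11 libraries 2, 3 and 4.

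Among beta globins, Hbb, the main adult beta chain gene, carried most of the counts. Hbb measured 4.27, 4.36, 2.43, 2.45 and 3.81 CPM in untreated libraries 1 to 5. It measured 14.8, 19.2, 4.56, 93.8 and 2.77 CPM in BT-11 libraries 1 to 5. BT-11 library 5 lay inside the untreated range, and BT-11 library 3 stood just above it. The Hbb mean was 3.47 ± 0.957 CPM in untreated and 27.0 ± 38.0 CPM in BT-11 libraries (SD, n = 5 each), a ratio of 7.80 that was 2.98 without BT-11 library 4.

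LOC100134871, a minor beta globin gene, measured 0.591, 1.07, 0.368, 0.272 and 0.565 CPM in untreated libraries 1 to 5. It measured 1.51, 2.18, 0.746, 10.9 and 0.338 CPM in BT-11 libraries 1 to 5. Its order among BT-11 libraries was that of Hbb, with libraries 4, 2 and 1 on top. Hbb-b1 ranged from 0.111 to 0.474 CPM in untreated and from 0.181 to 5.76 CPM in BT-11 libraries. Hbb-bs reached 0.290 CPM in untreated and 5.66 CPM in BT-11 libraries, and was listed at practically 0 in untreated libraries 2 and 4 and BT-11 library 3. For both of these minor rows BT-11 library 4 was again the highest. The ratio of BT-11 to untreated means was 4.94 for Hbb-b1 and 1.63 without BT-11 library 4.

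Hbb held most beta counts in every library, while the shares of the minor rows varied. Hbb took 68.9% to 85.7% of beta counts over the 10 libraries, and 80.8% in BT-11 library 4. LOC100134871 took 8.40% to 18.3%, Hbb-b1 2.11% to 13.4%, and Hbb-bs from practically 0 in 3 libraries up to 10.7%. The lowest Hbb share was in untreated library 3, whose beta sum was 49 counts, and the highest in untreated library 4, with 44.

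Alpha globins were highest in the same 3 BT-11 libraries as beta globins, at a like level, while the order of the lower libraries differed. Hba1, the leading alpha row, measured 4.68, 7.23, 5.24, 2.06 and 5.40 CPM in untreated libraries 1 to 5. It measured 18.0, 22.9, 6.31, 123.6 and 2.39 CPM in BT-11 libraries 1 to 5. BT-11 libraries 1, 2 and 4 lay above every untreated library, and BT-11 libraries 3 and 5 lay inside the untreated range. Its mean was 4.92 ± 1.87 CPM in untreated and 34.6 ± 50.4 CPM in BT-11 rats (SD, n = 5 each), a ratio of 7.03 that was 2.52 without BT-11 library 4.

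Hba-a2, the other alpha row, was low, at 0.0193 to 0.870 CPM in untreated and 0.190 to 9.90 CPM in BT-11 libraries. It took 0.366% to 10.3% of alpha counts in 9 libraries and 29.7% in untreated library 4, where the alpha sum was 45 counts. The log2 ratio of its means was 3.44, with 1.56 without BT-11 library 4 and 5.11 without untreated library 4. The division between these overlapping rows is an estimate, so untreated library 4 cannot be said to differ in alpha gene use.

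**Figure D2:**
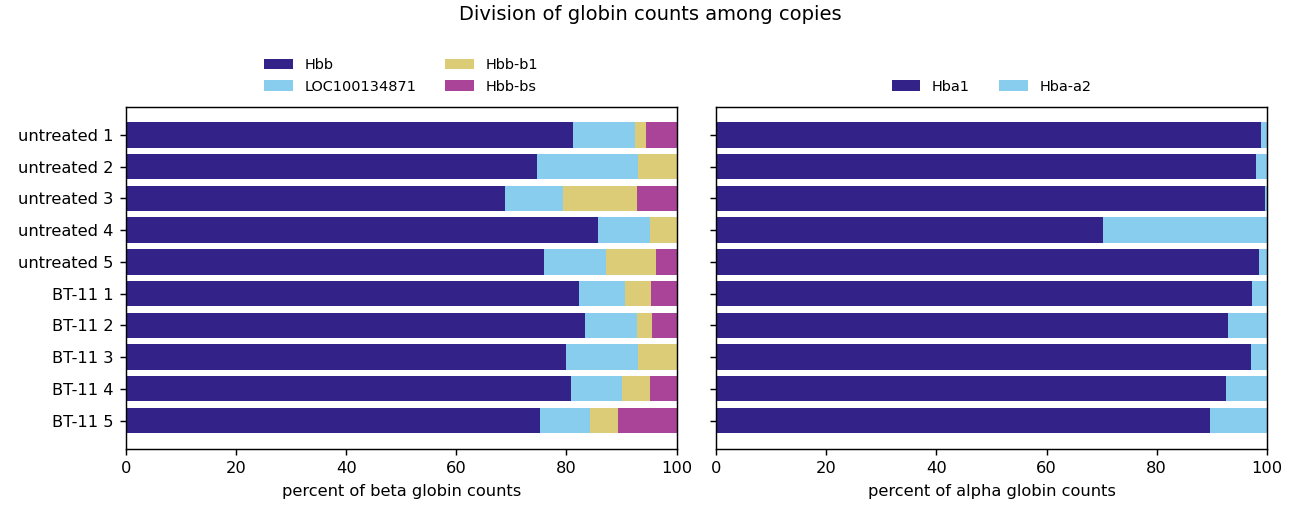
Share of beta globin counts (left) and alpha globin counts (right) given to each row, in percent, 1 bar per library. Hbb holds 68.9% to 85.7% of beta counts, and Hba1 holds most alpha counts, with the lowest share, 70.3%, in untreated library 4.

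Alpha and beta sums stood near each other in every library, whatever the total. The ratio of alpha to beta counts was 1.15 ± 0.230 in untreated and 1.02 ± 0.175 in BT-11 libraries (SD, n = 5 each). Over all 10 libraries it ranged from 0.721 in BT-11 library 5 to 1.49 in untreated library 3, while the summed globin level ranged over 43.1 times. In BT-11 library 4 the ratio was 1.15. Across the 10 libraries log2(CPM + 1) of the sums had a Pearson r of 0.99 and a Spearman rho of 0.92. Without the 2 libraries farthest from the median, BT-11 libraries 4 and 2, r was 0.94. These correlations are descriptions, since the genes were chosen with their values known and the points share depth and library.

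**Figure D3:**
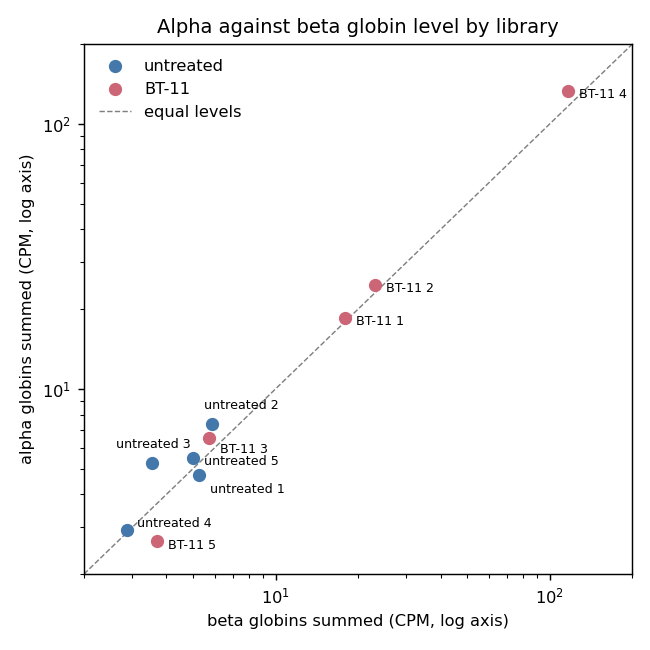
Summed alpha against summed beta globin level per library, in CPM on log axes, with a dashed line at equal levels. All 10 libraries lie near the line, from untreated library 4 at 2.93 and 2.86 CPM to BT-11 library 4 at 133.5 and 116.1 CPM.

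Per length, the leading rows stood, by their means, between the globins known from nerve tissue in untreated libraries and, by their medians, above both with BT-11. In CPM per kilobase of transcript, the untreated level was 5.59 ± 1.54 for Hbb and 8.85 ± 3.36 for Hba1 (SD, n = 5 each). Cytoglobin, Cygb, a globin of fibroblast-like cells and some neurons, stood higher, at 20.4 ± 2.7, and neuroglobin, Ngb, stood lower, at 2.72 ± 1.19. The untreated ranges of Hbb, 3.93 to 7.04, and of Ngb, 1.74 to 4.72, overlapped. With BT-11 the medians were 23.9 for Hbb and 32.4 for Hba1, against 18.3 for Cygb. In BT-11 library 4, Hbb and Hba1 reached 151.3 and 222.2 CPM per kilobase, against 18.3 for Cygb and 1.73 for Ngb. In CPM, Cygb and Ngb were each a little lower with BT-11, with a log2 fold change of -0.15 ± 0.0932 (SE) for Cygb and of -0.46 ± 0.252 (SE) for Ngb, and neither passed edgeR's test (adjusted p = 0.816 and 0.81). The log2 fold change of Ngb was -0.18 without untreated library 3. Of 13 other globin genes listed, 2 were in the table, namely Cygb and Ngb. The rest, such as the embryonic ones, had no row under the symbols searched.

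Alas2, the erythroid first enzyme of heme synthesis, had few reads and was highest in the same library as the globins. Its counts were 0, 6, 1, 0 and 4 in untreated libraries 1 to 5 and 4, 8, 1, 40 and 2 in BT-11 libraries 1 to 5. BT-11 library 4, with 40 counts (exact Poisson 95% interval 28.6 to 54.5), was the only library whose interval lay clear of those of all the others. As a one-sided limit, apart from these two-sided intervals, a count of 0 allows up to 3 counts, or 0.161 CPM in untreated library 1 and 0.195 CPM in untreated library 4. The log2 ratio of the Alas2 means in CPM was 2.39, with 0.88 without BT-11 library 4 and 3.32 without untreated library 2. Across the 10 libraries log2(CPM + 1) of Alas2 and of the summed globins had a Pearson r of 0.93 and a Spearman rho of 0.83, and r was 0.58 without BT-11 libraries 4 and 2. Set against the globins, Alas2 made up 0.986% of Alas2 and globin counts in BT-11 library 4 (exact 95% binomial interval 0.705% to 1.34%). In the other 9 libraries summed, 26 Alas2 counts beside 2380 globin counts gave 1.08% (0.707% to 1.58%). The intervals overlapped widely, but they cover counting error only, and the second pools animals of both groups. Single libraries had shares from 0% to 2.83%. Whether BT-11 library 4 differed in this share was not tested.

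Slc4a1, the band 3 anion exchanger, was at or under 3 counts in every library. It had 1, 0, 0, 0 and 1 counts in untreated libraries and 0, 3, 3, 3 and 1 counts in BT-11 libraries 1 to 5. No fold is given, because both groups lie at or under the 3 counts that a count of 0 allows. BT-11 library 4, with 4017 globin counts, and BT-11 library 3, with 186, each had 3 Slc4a1 counts. The exact Poisson interval of each was 0.619 to 8.77 counts. Counts this low cannot show whether Slc4a1 followed the globins.

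Across the whole table BT-11 library 4 stood apart in these genes. Of 11996 symbols with at least 10 counts in that library, 7 (0.0584%) had a CPM at least 3 times the highest of the other 9 libraries. All 7 were the red cell genes described above, namely the 6 globins and Alas2. They stood 4.77 to 6.93 times above the next library. In each of the other 9 libraries 0 to 3 symbols met the same rule, none of them a red cell gene. The rule was chosen after the values were seen and is a description.

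**Figure D4:**
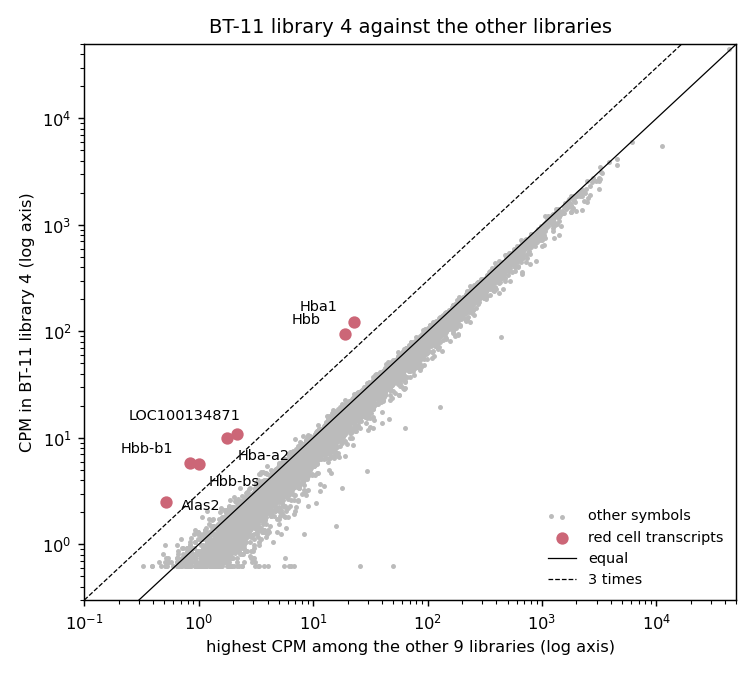
CPM in BT-11 library 4 against the highest CPM among the other 9 libraries, on log axes, for symbols with at least 10 counts in library 4, with lines at equal levels and at 3 times. The 7 red cell genes lie above the dashed line, and all other symbols lie below it.

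Of the 8 genes, 3 passed edgeR's filter on low counts, namely Hbb, Hba1 and LOC100134871. LOC100134871 passed largely through its levels in BT-11 libraries 1 to 4. No untreated library but library 2, at 1.07 CPM, stood above 0.591 CPM for it. These genes were chosen with their values in BT-11 library 4 known, and Hbb and LOC100134871 belong to the same family of divided counts. Their counts and ranks among tested genes are thus descriptions and no support for a difference. Among the 12000 tested genes 5 (0.0417%) had a mean more than 2 times higher with BT-11, and 3 of these were the red cell genes just named. For 0 of the 8 genes did the groups lie apart, against 0.3% of tested genes that lay wholly higher and 0.542% that lay wholly lower with BT-11. With edgeR's quasi-likelihood test across all genes, 0 of 12000 (0%) had an adjusted p under 0.05, while 715 had an unadjusted p under 0.05 (5.96%). DESeq2, fitted without the filter on low counts, called 8 of 13670 symbols, and which genes these were is not given here. Within the BT-11 group the SD of log2(CPM + 1) was 1.96 for Hba1 and 1.82 for Hbb, ranks 8 and 9 of 12000 genes. Within the untreated group it was 0.53 and 0.32, ranks 177 and 1094. Without BT-11 library 4 they ranked 13 and 17 among the BT-11 libraries. LOC100134871 ranked 15 within the BT-11 group, 146 without BT-11 library 4 and 1938 within the untreated group.

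The rest of the heme pathway did not share the spread of the globins. All 14 listed genes of heme synthesis and its transport were tested, 6 higher and 8 lower with BT-11, with a median log2 fold change of -0.02 beside 0.00 for all genes. Their summed level was 332.7 to 355.1 CPM in untreated and 323.6 to 346.9 CPM in BT-11 libraries. None passed edgeR's test, and 1 had an unadjusted p under 0.05. That gene was Cpox, coproporphyrinogen oxidase, at 26.0 ± 1.24 CPM in untreated and 22.3 ± 0.997 CPM in BT-11 rats (SD, n = 5 each), a log2 fold change of -0.22 ± 0.0625 (SE; adjusted p = 0.8). Alas1, the form of the first enzyme that most tissues use, measured 48.0 ± 3.07 and 46.8 ± 1.89 CPM (SD, n = 5 each). It stood at 45.6 CPM in BT-11 library 4, where Alas2 was highest.

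Of 17 listed genes of heme breakdown and scavenging, 13 were tested, 2 higher and 11 lower with BT-11, with a median log2 fold change of -0.06, and none passed. Hmox1, the heme oxygenase that free heme is known to induce, measured 9.02 ± 1.78 CPM in untreated and 9.37 ± 1.59 CPM in BT-11 rats (SD, n = 5 each). Its log2 fold change of 0.06 ± 0.155 (SE) did not pass (adjusted p = 0.958), and BT-11 library 4 stood at 10.5 CPM, inside the untreated range of 6.63 to 11.1 CPM. Slc48a1, a heme transporter of lysosomes, had a log2 fold change of -0.17 ± 0.097 (SE), and Fth1, a ferritin chain that stores iron, one of -0.18 ± 0.119 (SE; adjusted p = 0.812 and 0.816).

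As sums, the other lists of genes named for red cells did not move with the globins, although most genes on them are also expressed in brain. Of 20 red cell membrane genes 14 were in the table, and 12 were tested, 6 higher and 6 lower, with a median log2 fold change of 0.00. Gypc, glycophorin C, which other tissues also express, was the only one with an unadjusted p under 0.05. It was lower with BT-11, at 3.32 ± 1.68 CPM against 5.61 ± 1.91 CPM (SD, n = 5 each; adjusted p = 0.809), and stood at 2.30 CPM in BT-11 library 4. Of 12 erythroid regulators 8 were tested, 6 higher and 2 lower with BT-11, with a median log2 fold change of 0.08 and none passing. Klf1, the factor that drives adult beta globin, measured 0.621 CPM in BT-11 library 4 against 1.12 ± 0.234 CPM in untreated libraries (SD, n = 5). Its lowest BT-11 value was 0.530 CPM, in another library. Zfpm1, the partner protein of GATA factors, had a log2 fold change of 0.28 ± 0.094 (SE; adjusted p = 0.8). Zfpm1 and Tal1, of the same list, were highest of all 10 libraries in BT-11 library 4, at 30.5 and 3.98 CPM. BT-11 library 4 ranked 3 of 10 for the sum of the regulators. Of 16 genes of reticulocyte maturation 11 were tested, 6 higher and 5 lower with BT-11, with a median of 0.05 and none passing. Among them Car1, a carbonic anhydrase of red cells, had at most 2 counts in any library. Car2, a carbonic anhydrase also made by oligodendrocytes, had a log2 fold change of -0.29 ± 0.0931 (SE; adjusted p = 0.8).

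Of the lists of other blood cells, those of neutrophils, platelets and lymphocytes were low in all libraries. Of 13 neutrophil genes 6 were in the table and 2 were tested, with a summed level of 8.45 to 12.1 CPM in untreated and 5.77 to 13.4 CPM in BT-11 libraries. BT-11 library 4 was the highest for that sum, which is made up mostly of Csf3r and Mmp9. It was also the highest for Csf3r, at 7.52 CPM, while Mmp9 was highest in another BT-11 library. S100a8 and S100a9, the defining neutrophil transcripts, had at most 2 and 4 counts in any library, and the 4 counts of S100a9 were in BT-11 library 4. Ngp and Lcn2 had at most 9 and 4 counts, each highest in an untreated library. Of 12 platelet genes 5 were in the table, at 4.40 to 6.45 CPM in untreated and 4.99 to 5.70 CPM in BT-11 libraries. Most of that sum came from Gp5, with means of 4.31 CPM in untreated and 4.63 CPM in BT-11 libraries. Pf4 had at most 3 counts. Of 14 lymphocyte genes 6 were in the table, at 10.6 to 19.6 CPM and 7.42 to 15.8 CPM, with BT-11 library 4 ninth of 10. The list of blood monocytes stood higher, at 119.6 to 137.9 CPM in untreated and 126.1 to 145.2 CPM in BT-11 libraries, most of it from Coro1a and Lyz2, with BT-11 library 4 eighth of 10. Of its 10 genes 3 were tested, 1 higher and 2 lower with BT-11, and none passed. The part of these cells in the globin level was not tested.

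No vessel or choroid plexus gene passed edgeR's test, and the choroid plexus sum varied widely between libraries. Of 18 endothelial genes 16 were tested, 4 higher and 12 lower with BT-11, with a median log2 fold change of -0.06 and none passing. Their sum was 584.3 to 817.5 CPM in untreated and 527.9 to 762.5 CPM in BT-11 libraries, with BT-11 library 4 highest of its group. Of 12 listed genes of pericytes and smooth muscle 11 were tested, 4 higher and 7 lower with BT-11, and none passed. Of 14 choroid plexus genes 10 were tested, 1 higher and 9 lower, and none passed. Their sum was 144.1 to 1789 CPM in untreated and 86.4 to 1816 CPM in BT-11 libraries. Cldn5, the tight junction protein of brain vessels, measured 87.8 ± 19.0 CPM and 84.4 ± 14.8 CPM (SD, n = 5 each). Ttr, transthyretin of the choroid plexus, was 1055 CPM in untreated library 4 and 1196 CPM in BT-11 library 3, libraries with globin sums of 5.79 and 12.2 CPM, and 1.86 CPM in BT-11 library 4. Apart from choroid plexus, the 13 other lists of the plot by gene list lay between -0.55 and 0.36 on the log2 scale in BT-11 library 4 relative to the untreated mean, where the summed globins lay at 4.69.

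**Figure D5:**
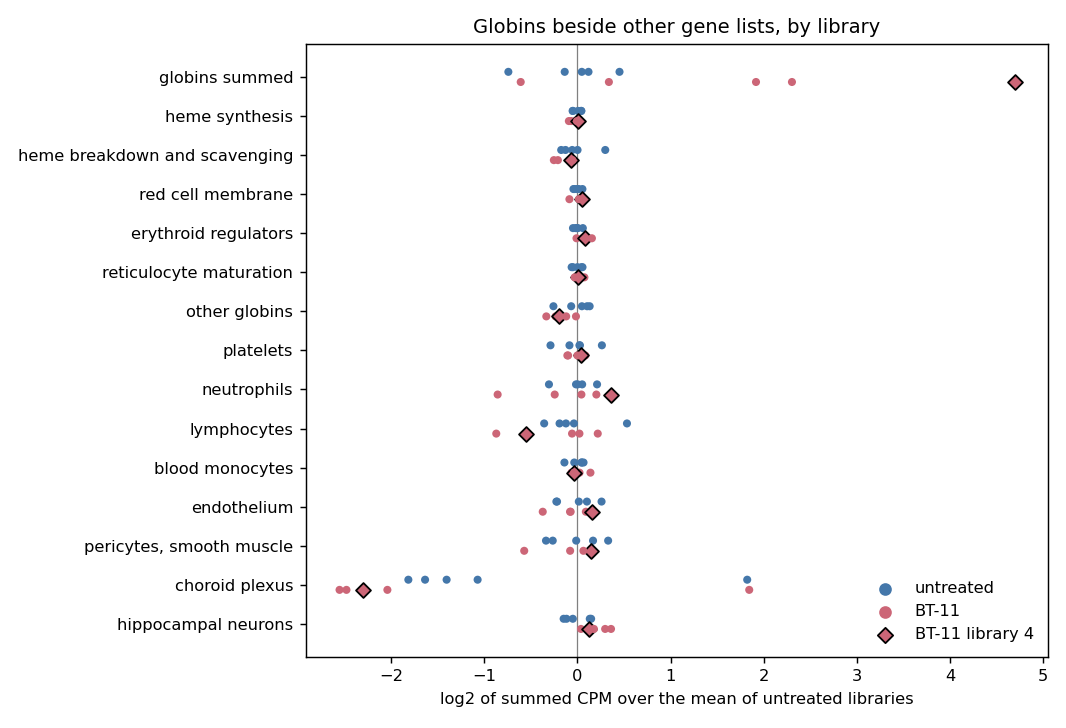
Summed CPM of each gene list per library, as log2 over the mean of the 5 untreated libraries, 1 point per library with BT-11 library 4 as a diamond. The globins spread from untreated values up to 4.69 in BT-11 library 4, while the other lists except choroid plexus stay between -0.87 and 0.53 in all libraries.

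The tested genes outside the red cell set whose order of libraries was most like that of the summed globins were Rab22a, Bbs7, Nemf, Bmi1, Zfp365 and Evi5, by Spearman rho over the 10 libraries. Rab22a, a small GTPase of endosomes, had a rho of 0.99 and a Pearson r of 0.83, and r was 0.85 without BT-11 libraries 4 and 2. It ranged from 52.3 CPM in untreated library 4 to 63.4 CPM in BT-11 library 4, a range of 1.21 times. The other 5 had rho values of 0.87 to 0.92 and ranges of 1.11 to 1.4 times. These ranges are small beside the 43.1 times of the globins, and likenesses picked from 12000 genes over 10 libraries are descriptions with no test.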

How the data were processed

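The members and gene lists were chosen with earlier results of these data known. The submitters' processing notes name STAR 2.7.9a, build rn6, bcl2fastq 2.19.1.403, DESeq2 and also Partek. Which program counted reads, with what annotation and strand, was not given in the sources used here. RNA came from a column kit and strand-specific mRNA libraries, per the labels' protocols. The authors deposited estimated counts (expected counts) for 14806 transcript rows, 85.4% whole within 1e-6, and the same values as a normalized signal, multiplied by 1 factor per library (0.822 to 1.15), which leaves tissue makeup in place. 

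Rows were summed by symbol (13670) and rounded for tests. edgeR 4.0.16 (R 4.3.3) kept 12000 by filterByExpr and scaled by TMM. Groups were compared by its two-sided quasi-likelihood test, without covariates and with Benjamini-Hochberg adjustment over all tested genes, at a threshold of 0.05. CPM of untested symbols used the same factors. Standard errors came from the fold change and F statistic. P-values set the difference between the groups against the estimated spread between animals. Alternatives used DESeq2 1.42.0 and limma 3.58.1, also on the deposited values as log2(value + 1). SciPy 1.17.1 gave exact intervals, which cover counting error only, Biopython 1.88 the promoter identities and matplotlib 3.10.9 the figures. The procedure was tested on simulated data.

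The named genes were fixed by a rule: all 8 members, the 6 genes most like the summed globins, and genes with the smallest p-values per list described. The plan allowed up to 4 of the last per list, and fewer were taken. Hmox1, Alas1, Ngb, Cygb, Cldn5 and Ttr were also named by the rule. Klf1, Tal1, Car1, Csf3r, Mmp9, S100a8, S100a9, Ngp, Lcn2 and Pf4 were named after their values were seen, as markers of their lists. After the tables were seen, 3 listed symbols were respelled to those of the table and LOC100134871 was moved to the beta list by its position. Same-numbered animals of the groups did not deviate together (correlations from -0.35 to 0.12), so the numbers do not pair them.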

Additional observations from a re-analysis of the deposited data

Results flagged for a closer look

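Within groups of 5, single libraries lay far from the rest by Dixon's ratio, the gap to the nearest library over the group's range, with a critical value of 0.71. Of 78 groups examined 18 passed, and 11 of these were red cell genes and their sums, which were chosen with their high values in BT-11 library 4 known. Among the 56 groups of other genes 7 passed. A rate of about 1 in 20 by chance holds for independent, normally spread values. These groups used CPM without logs, share libraries and hold genes picked by list, p-value or likeness. The 7 can therefore not be set against that rate. BT-11 library 4 was the highest for Hbb (0.82), Hbb-bs (0.822), Hbb-b1 (0.883), LOC100134871 (0.825), Hba-a2 (0.838), Hba1 (0.831), Alas2 (0.812), the beta sum (0.828), the alpha sum (0.832) and the sum of all globins (0.83). These ratios share 1 library and reads of the same families, so they are 1 observation and not 10. Untreated library 4 was high for Hba-a2 (0.852). It also was high for Ttr (0.949), as was BT-11 library 3 (0.987).

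Among the other named genes, Gypc was high in untreated library 3 (0.758) and Xk, a red cell membrane protein gene, in BT-11 library 2 (0.729). Zfpm1 was low in untreated library 2 (0.756), Bbs7 in untreated library 3 (0.712) and Nemf in BT-11 library 5 (0.73).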

How the results depend on the processing

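The log2 ratio of mean summed globins, 2.87 in the report, stayed between 2.85 and 2.87 under the other scalings, the deposited normalized values and single rows. Leaving out 1 library gave 1.41 to 3.16, with 1.41 without BT-11 replicate 4. No genes were called (0) in any alternative but DESeq2, which called 8, and the count was 0 without any 1 library. With the replicate number as a block 0 genes were called. The sums carry no test, so they had no blocked value. Of 22 named genes with a fitted fold change, 19 kept their direction throughout. The exceptions when 1 library was left out were Cldn5 (log2 fold change -0.0554, range -0.1275 to 0.067), Hmox1 (0.0555, range -0.0374 to 0.1351) and Ttr (-0.0249, range -5.2896 to 2.3644), and Ttr was at 0.0534 when scaled by library size only, -2.3979 with the replicate block and -2.6647 on the deposited normalized values. Of the 6 genes most like the globins, 1 stayed among the top 6 without BT-11 replicate 4 and 2 by Pearson r, settings chosen after seeing the data. The causes were not tested. Depth limits Slc4a1, Alas2 and single globin rows, and the difference between the groups rests largely on BT-11 library 4.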
